A study of Sus scrofa with 6 samples.

Results

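The miR-28, miR-151 and miR-708 miRNAs were taken from the miRNA profile of fetal pig muscle as every mature miRNA whose first listed name starts with ssc-miR-28-, ssc-miR-151 or ssc-miR-708. The rule found 6 of the 1143 miRNAs analysed here, the 5p and the 3p arm of each of 3 hairpins, and all 6 passed the filter on low values. The 6 small RNA libraries came from longissimus dorsi, the long muscle of the back, of 3 female Large White fetuses (LW, a lean breed) and 3 female Meishan fetuses (MS, a Chinese obese breed). Each library was 1 fetus of another sow, and dams and boars were of the fetus's own breed, so that the breed of the fetus and that of its dam cannot be told apart. According to the methods the fetuses were at 35 days post-conception, whereas the sample labels give adults of 2 years; both give the same breeds, on which every comparison rests.

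A miRNA hairpin is cut into a 5p and a 3p arm, and whichever arm is loaded into an Argonaute protein represses mRNAs that pair with its seed, bases 2 to 8 from the 5′ end. In human the miR-28, miR-151 and miR-708 hairpins derive from copies of LINE-2, an ancient mammalian retrotransposon, and lie in introns of protein-coding genes. In the RefSeq annotation of the later pig assembly Sscrofa11.1 the hairpin genes lie within LPP (miR-28), PTK2 (miR-151) and TENM4 (miR-708). LPP is a cell adhesion protein, PTK2 is focal adhesion kinase, and TENM4 is a teneurin. In human liver cancer cells miR-151 is known for promoting cell migration, in human B cells miR-28 is known as a suppressor of lymphoma growth, and in mouse muscle stem cells miR-708 acts downstream of Notch in keeping the cells quiescent.

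The sequences are shown because the 5p arms resemble one another, but miR-151-5p starts at another base than miR-28-5p and miR-708-5p and so has another seed. The seed is in capitals, and the letters are those of the deposited table (T for U).
miR-28-5p: aAGGAGCTcacagtctattga
miR-708-5p: aAGGAGCTtacaatctagctggg
miR-151-5p: tCGAGGAGctcacagtctagt
miR-28-3p: cACTAGATtgtgagctcctgga
miR-708-3p: cAACTAGActgtgagcttctag
miR-151-3p: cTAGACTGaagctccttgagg
MiR-28-5p and miR-708-5p had the same seed, AGGAGCT, which no other of the 1143 listed sequences had at bases 2 to 8. MiR-151-5p shared a run of 16 bases with miR-28-5p (AGGAGCTCACAGTCTA), but the run began at base 4 in miR-151-5p and at base 2 in miR-28-5p. The seed of miR-151-5p was therefore CGAGGAG, found elsewhere only in PC-18-5p. The deposited table types PC-18-5p as a candidate, whereas the methods give the prefix PC- to conserved miRNAs. Aligned at that offset, 17 of 19 bases were identical between miR-151-5p and miR-28-5p, and 15 of 19 between miR-151-5p and miR-708-5p. The 3p arms had 3 different seeds, none of them shared with any other listed miRNA. Set without gaps at their longest shared run, miR-28-3p and miR-708-3p were identical at 17 of 21 bases. Set in the same way, miR-151-3p matched each of them at 9 of 19, with a run of 7 bases shared with miR-28-3p and 8 with miR-708-3p. An alignment with gaps, which can find more matches, was not made, so these counts do not show that miR-151-3p is unlike the other 3p arms.

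The hairpins show where the arms lie, with the listed arms in capitals. They are the pig hairpins that the authors list with positions on Sscrofa10.2.
mir-151: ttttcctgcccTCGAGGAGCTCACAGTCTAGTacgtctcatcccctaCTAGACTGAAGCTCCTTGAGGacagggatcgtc
mir-28: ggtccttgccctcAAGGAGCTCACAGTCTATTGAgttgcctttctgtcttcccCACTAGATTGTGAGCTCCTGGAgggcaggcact
mir-708: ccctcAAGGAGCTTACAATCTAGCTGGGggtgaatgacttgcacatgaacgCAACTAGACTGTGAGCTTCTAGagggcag
Mir-28 lay on the plus strand of chromosome 13 at 135461289 to 135461374. Mir-708 lay on the minus strand of chromosome 9 within 15120464 to 15120577, an interval of 114 bases that is longer than the 80 bases listed. Mir-151 was on the plus strand of an unplaced scaffold, and its interval of 94 bases was likewise longer than its 80 listed bases. Both arms of each hairpin were found in it without a mismatch, with 15 bases between the arms in mir-151, 19 in mir-28 and 23 in mir-708. The exon structure of the host genes at these places was not analysed here.

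Values are the authors' normalized reads. Only the commonest sequence of a miRNA was counted, so that its other length variants are left out, and the counts were scaled for each library's total. The values summed to between 2541224 and 2914028 in the LW libraries and between 1757879 and 2362082 in the MS libraries. They correspond to 1038986 to 3419270 recovered reads, fewest in MS replicate 3. The fewest reads behind any value of a member were 109, for miR-708-3p. The muscle miRNAs miR-1, miR-133a, miR-133b and miR-206 were present in every library, with 17321 to 22462 normalized reads in LW and 61667 to 85159 in MS for the sum of their 8 arms. Lists of miRNAs known from other cell types also differed. Of 9 lists with muscle, the sums of 7 were higher in every MS than in every LW library and those of 2 were lower. The higher ones were, after muscle, those of red blood cells (3510 to 4571 in LW and 6107 to 10782 in MS), endothelium (5134 to 8860 and 10500.0 to 13989), smooth muscle (14065 to 22527 and 23294 to 45565), neural tissue (388 to 1405 and 1659 to 4193), leukocytes (70.0 to 85.2 and 694 to 1301) and epithelium, by the arms of miR-205 alone (122 to 244 and 406 to 1210). The lower ones were those of cartilage miR-140 (54414 to 71203 in LW and 4540 to 10576 in MS) and liver miR-122 (183 to 2864 and 47.5 to 89.1). Such a sum can rest on 1 arm. In smooth muscle miR-143-3p was higher in MS (log2 fold change, MS minus LW, 0.91). Its other arms, miR-143-5p (-1.66), miR-145-3p (-1.19) and miR-145-5p (-1.765), were lower, each with an adjusted p under 0.05 from limma. In endothelium miR-126-5p was at 2.61 and miR-126-3p at -0.43, and in cartilage miR-140-3p was at -3.34 and miR-140-5p at -0.12. None of the arms found was at 0 in every library. The leukocyte sums came from the arms of miR-142 alone, since miR-223 had no row. The other names of the epithelium list, which had no row either, were not analysed here. The part of this cell mixture in the differences below was not tested, and in whole muscle fewer cells of a type and less miRNA per cell cannot be told apart.

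MiR-151-5p (ssc-miR-151-5p in the table) was the member called between the breeds, and the ratio to its hairpin partner miR-151-3p changed as well. In LW miR-151-5p had 24164, 20079 and 31075 normalized reads in replicates 1, 2 and 3. In MS it had 10350, 9134 and 9567. Every LW library was above every MS library, and the MS values lay closer together, with an SD of 616 against 5558 in LW. The log2 fold change, MS minus LW, was -1.35 (standard error 0.24, adjusted p = 0.00038 from limma over the 548 miRNAs tested), which is 2.55-fold lower in MS. MiR-151-5p ranked between 25 and 36 among all miRNAs in the LW libraries and 42 or 43 in the MS libraries. It was called lower with every library left out in turn, with values from -1.50 to -1.19.

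Differences between the breeds were common in this profile, and the call of 1 member in 6 has to be read against that. At an adjusted p under 0.05, 62.2% of the 548 miRNAs were called and 28.1% were called lower in MS. Of the family 1 of 6 was called, miR-151-5p, and 0 were called higher, whereas 34.1% of all miRNAs were. EdgeR's quasi-likelihood test and DESeq2, both run on the recovered reads, also called only miR-151-5p among the 6 (log2 fold changes -1.41 and -1.46), and at an unadjusted p under 0.05 from limma no other member passed either. The median log2 fold change of the 6 was 0.33, beside 0.11 over all miRNAs tested.

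**Figure D1:**
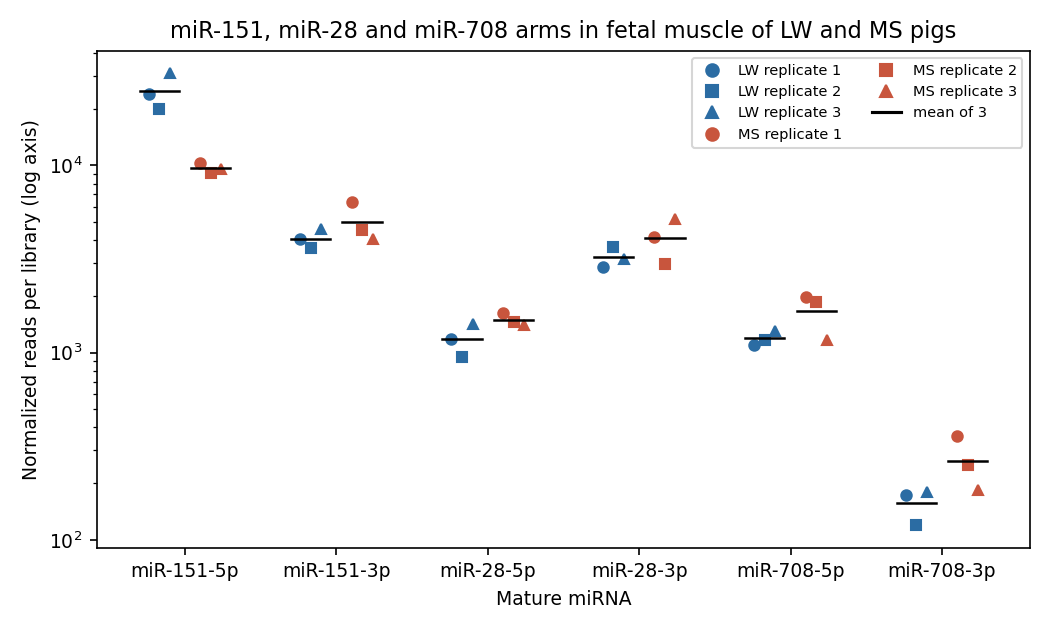
Normalized reads (log axis) of the 6 mature miRNAs in each of the 3 LW and 3 MS libraries, with the mean of each breed as a line. For miR-151-5p the LW libraries (20079 to 31075) lie above the MS libraries (9134 to 10350), and for the other members the breeds overlap or lie close together.

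MiR-151-3p is cut from the other side of the same hairpin. It had 4032, 3605 and 4573 normalized reads in LW and 6368, 4534 and 4050 in MS. MS replicate 1 was the highest, and MS replicates 2 and 3 lay within the LW range. Its log2 fold change was 0.27 (95% interval -0.29 to 0.84, adjusted p = 0.37 from limma).

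MiR-28-5p and miR-708-5p, which share a seed, did not pass the test. MiR-28-5p had 1183, 948 and 1419 normalized reads in LW and 1638, 1450 and 1398 in MS. Overlap was narrow, since LW replicate 3 was above MS replicate 3. Its log2 fold change was 0.35 (95% interval -0.23 to 0.94, adjusted p = 0.26 from limma), and it was -0.22 after a correction for GC content, also not called. MiR-708-5p had 1092, 1175 and 1313 normalized reads in LW and 1974, 1868 and 1174 in MS. Here MS replicate 3 lay among the LW libraries while MS replicates 1 and 2 were above all of them. Its log2 fold change was 0.45 (95% interval -0.17 to 1.07, adjusted p = 0.18 from limma), and without MS replicate 3 it was 0.69 and called (adjusted p = 0.030 from limma). Without MS replicate 1 it was 0.32 and not called (adjusted p = 0.43 from limma). Over all miRNAs the fit without MS replicate 3 called 373, against 341 with every library kept. In every library these 2 miRNAs were close in level, with a ratio of miR-28-5p to miR-708-5p between 0.81 and 1.08 in LW and between 0.78 and 1.19 in MS.

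MiR-28-3p and miR-708-3p did not pass either. MiR-28-3p had 2861, 3660 and 3162 normalized reads in LW and 4145, 2964 and 5162 in MS. MS replicate 2 was within the LW range, and the log2 fold change was 0.31 (95% interval -0.28 to 0.91, adjusted p = 0.33 from limma). MiR-708-3p was the scarcest member, with 174, 120 and 180 normalized reads in LW and 359, 251 and 184 in MS. Every MS library was above every LW library, though MS replicate 3 and LW replicate 3 nearly met, and the log2 fold change of 0.71 (95% interval -0.04 to 1.46) had an adjusted p of 0.089 from limma. Without MS replicate 3, the shallowest library, miR-708-3p was at 0.95 and called (adjusted p = 0.022 from limma). Without MS replicate 1 it was at 0.47 and not called (adjusted p = 0.31 from limma). Over all miRNAs 373 were called without MS replicate 3 and 313 without MS replicate 1, against 341 with all 6 libraries. The breeds did not overlap for 2 of the 6 members, 1 in each direction, whereas this held for 67.7% of all miRNAs tested (36.7% with MS higher and 31.0% with MS lower).

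How the other 5 members read depended on the scaling. Because the LW values sum to more, setting all libraries to equal sums moved the median over all miRNAs up by 0.43 on the log2 scale and that of each member by 0.44. All 6 members were then called, 5 higher in MS and miR-151-5p lower at -0.91, where 63.9% of all miRNAs were called and 42.3% were called higher. With a GC correction 4 were called, where 59.9% of all miRNAs were (30.8% higher and 29.0% lower). MiR-151-3p (0.84), miR-28-3p (0.72) and miR-708-5p (0.66) were then higher and miR-151-5p was lower at -0.78. TMM and median of ratios left the single call as it was.

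**Figure D2:**
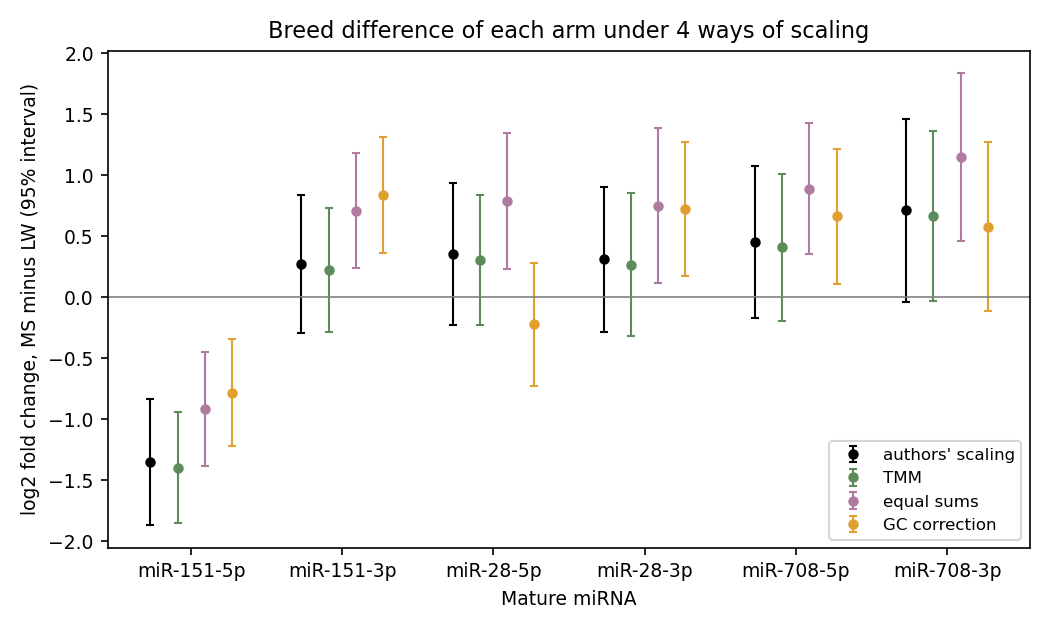
Log2 fold change (MS minus LW) of each member with its 95% interval from limma, under the authors' scaling, TMM, equal sums and a GC correction. MiR-151-5p is below 0 under all of these (-1.35, -1.40, -0.91 and -0.78), whereas miR-28-5p goes from 0.35 under the authors' scaling to 0.79 with equal sums and -0.22 with the GC correction.

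The ratio of the arms within a library does not depend on how libraries are scaled. Of the 3 hairpins only miR-151 had a called difference in it. MiR-151-5p had 5.99, 5.57 and 6.80 times the reads of miR-151-3p in LW replicates 1, 2 and 3. In MS the ratios were 1.63, 2.01 and 2.36. The 5p arm led in both breeds, but every LW library was above every MS library, and the 5p share of the reads of both arms was 85.9% ± 1.21 in LW against 66.3% ± 4.19 in MS (SD, n = 3). The log2 difference of the ratio was -1.62 (standard error 0.28, adjusted p = 0.0011 from limma over 192 hairpins with both arms tested). Both arms have a GC content of 52.4%, so the GC correction left this value at -1.62, and it was between -1.75 and -1.48 with each library left out in turn. Both arms together came to 29176 ± 6042 normalized reads in the LW libraries, against 14668 ± 1775 in the MS libraries (SD, n = 3).

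The miR-28 hairpin was the one whose 3p arm led. The ratio of 5p to 3p was 0.41, 0.26 and 0.45 in LW and 0.40, 0.49 and 0.27 in MS. LW replicate 2 and MS replicate 3 were the low ones, and the ratios overlapped widely. The log2 difference was 0.041 (95% interval -0.78 to 0.86, adjusted p = 0.92 from limma). The arms differ in GC content, at 42.9% and 50%, and after the GC correction the difference was -0.94 and called lower (adjusted p = 0.046 from limma), but not when a replicate block was added (adjusted p = 0.091).

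In the miR-708 hairpin the 5p arm led as in miR-151. The ratio was 6.27, 9.82 and 7.29 in LW and 5.50, 7.45 and 6.37 in MS, with LW replicate 2 the highest, and the breeds overlapped. The log2 difference was -0.26 (95% interval -0.93 to 0.42, adjusted p = 0.46 from limma), and 0.083 after the GC correction, also not called.

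**Figure D3:**
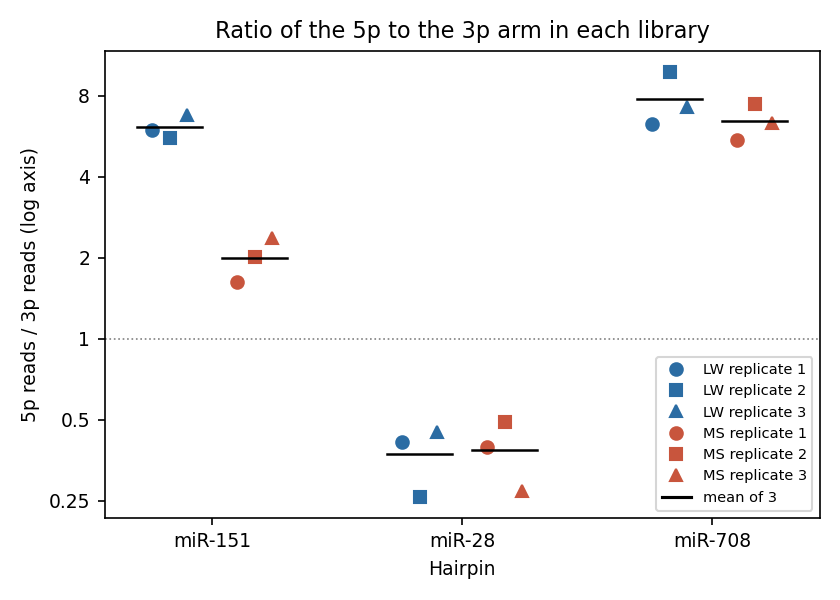
Reads of the 5p arm divided by reads of the 3p arm (log axis) in each library, for the 3 hairpins, with the mean of each breed as a line and equal arms dotted. MiR-151 goes from 5.57 to 6.80 in LW down to 1.63 to 2.36 in MS, whereas miR-28 stays below 1 and miR-708 above 5 in both breeds with overlapping libraries.

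A shift of this size between arms was not particular to miR-151 in these libraries. Of the 192 hairpins 64.6% had a called difference in the arm ratio 35.4% lower and 29.2% higher in MS, beside 1 of the 3 hairpins here. The breeds did not overlap for 69.3% of hairpins and for 1 of these 3. A difference at least as large as that of miR-151, in either direction, was found in 89 of the 192, and the median absolute difference was 1.46. The leading arm differed between the breeds in 18 hairpins, none of them of this family. MiR-28 and miR-708 lay at the other end, since 189 and 173 of the hairpins had a difference at least as large as theirs.

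**Figure D4:**
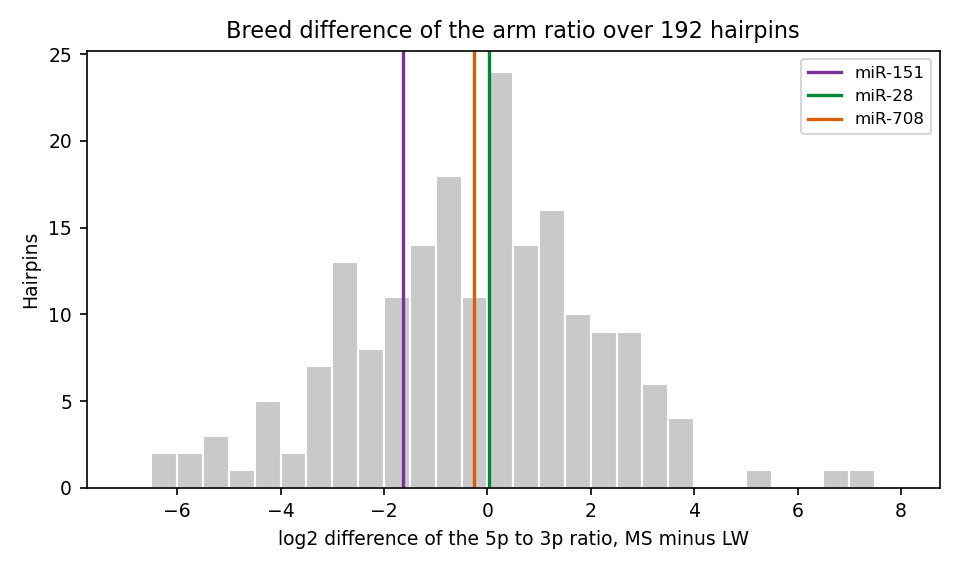
Number of hairpins by the log2 difference of their 5p to 3p ratio (MS minus LW), over the 192 hairpins tested, with the 3 hairpins of the family as vertical lines. MiR-151 is at -1.62 within the broad left side, and miR-28 (0.041) and miR-708 (-0.26) are near the centre.

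Ratios between members, which need no scaling either, were lower in every MS than in every LW library where miR-151-5p was set against the other 5p arms. There were 20.4 to 21.9 reads of miR-151-5p for each read of miR-28-5p in LW, and 6.30 to 6.84 in MS, although these arms share 16 bases. The ratio varied little within a breed, at 21.2 ± 0.74 in LW against 6.49 ± 0.31 in MS (SD, n = 3), and the log2 difference was -1.71. The ratio of miR-151-5p to miR-708-5p was 17.1 to 23.7 in LW and 4.89 to 8.15 in MS, a log2 difference of -1.81. Both had p = 0.10 in a two-sided exact permutation test, which is the smallest p that 3 animals against 3 allow, and 0.20 adjusted over the 6 ratios tested. After the GC correction the first shrank to -0.56 and the second to -1.45, with the same adjusted p of 0.20 from the exact test. Among the 3p arms the ratio of miR-151-3p to miR-708-3p was 23.2 to 30.2 in LW and 17.7 to 22.0 in MS, at a log2 difference of -0.44 (exact permutation test, p = 0.10, adjusted 0.20), and it was 0.26 after the GC correction. The other 3 ratios overlapped between the breeds, though that of miR-28-5p to miR-708-5p went from a log2 difference of -0.10 to -0.88 with the GC correction (exact permutation test, adjusted p = 0.20).

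The order of the mean levels was the same in both breeds. MiR-151-5p was first, followed by miR-151-3p, miR-28-3p, miR-708-5p, miR-28-5p and miR-708-3p. These are levels in normalized reads of miRNAs of 21 to 23 bases, where preferences of the library preparation for some sequences were not tested. The ranges of miR-151-3p and miR-28-3p overlapped in each breed, and so did those of miR-708-5p and miR-28-5p, while the other neighbours in the order were apart. MiR-151-3p was above miR-28-3p in 2 of 3 libraries of each breed. MiR-708-5p was above miR-28-5p in 1 of 3 LW libraries and 2 of 3 MS libraries. Together the 6 miRNAs held 1.06% to 1.43% of the normalized reads of the LW libraries and 1.01% to 1.23% of the MS libraries. MiR-151-5p made up 67.9% to 74.5% of the family in LW and 41.7% to 45.2% in MS. Without it the family held 0.34% to 0.37% of the summed normalized reads in LW and 0.56% to 0.68% in MS. Shares of a library's sum correspond to the scaling to equal sums, which moved the median over all miRNAs up by 0.43 on the log2 scale. On that scaling 42.3% of all miRNAs were called higher in MS.

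The miRNAs with values most like those of miR-151-5p were not of its family. Likeness was measured as the root mean square difference of the centred log2 values over the 6 libraries, whose median over 547 miRNAs was 0.97. This measure takes in the breed difference, so the other members, which were not lower in MS, could hardly be among the closest. The 5 closest were miR-125a-3p (0.14), miR-493-3p (0.14), PC-92-5p (0.15), miR-652-3p (0.15) and miR-130b-5p (0.16). Among them miR-130b-5p was the most abundant, at 2742 ± 543 normalized reads in LW against 1226 ± 205 in MS (SD, n = 3). The log2 fold changes of the 5 lay between -1.61 and -1.16, beside -1.35 for miR-151-5p. MiR-151-3p stood at place 229 of the 547 (0.83), and the members after it were between places 236 and 298.

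MiR-95, miR-325, miR-421 and miR-545 are further miRNAs that overlap LINE-2 copies in human. The table held 8 of their arms, and 7 passed the filter. One of the 7, miR-325-5p, passed only through the MS libraries, where it was higher (3.75 ± 2.69 normalized reads in LW against 25.9 ± 7.71 in MS), and it is left out of the counts here. Of the other 6, 3 were called higher and 1 lower in MS, beside 34.1% and 28.1% of all miRNAs. MiR-545-3p rose from 45.2 ± 8.42 to 503 ± 70.9 normalized reads (SD, n = 3 each, log2 fold change 3.45, adjusted p = 3.5e-06 from limma), and miR-545-5p rose from 121 ± 43.4 to 661 ± 89.9 (2.51). MiR-325-3p (1.32) was also higher. MiR-95-3p was lower, at 231 ± 24.0 in LW against 82.8 ± 24.8 in MS (SD, n = 3, a log2 change of -1.51, adjusted p = 0.0018 from limma), the same direction as miR-151-5p. MiR-421-3p (0.61) and miR-421-5p (-0.017) did not pass. Several of these sequences are poor in G and C (27.3% in miR-545-5p). After the GC correction only miR-545-3p was called higher among these 6 (1.09) and miR-95-3p lower (-2.90), beside 30.8% and 29.0% of all miRNAs. MiR-545-5p (-0.24) and miR-325-3p (-0.07) turned below 0 with that correction and were not called.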

How the data were processed

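Per the file header and the methods, the authors deposited 1 table of normalized reads, a signal. Reads of 18 to 26 nt were kept with ACGT101-miR (no version is given in the sources used here), those matching other RNA classes or repeats were dropped, and the rest were mapped by BLAST to miRBase 21.0 and Sscrofa 10.2. The commonest sequence of each miRNA was counted and scaled by its library's mappable reads, to a target that is not stated. Blank lines, of which there were 4, were left out.

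The test between breeds was limma 3.58.1 (R 4.3.3, eBayes with trend) on log2(normalized reads + 1). It ran over the 548 miRNAs whose mean reached 10 normalized reads in LW or MS, with Benjamini-Hochberg adjustment and a threshold of 0.05. This replaces the Student test of the study, since 3 animals a breed give few degrees of freedom. Fold changes on this scale understate those of scarce miRNAs. Arm ratios were log2(5p + 1) minus log2(3p + 1), fitted alike over the 192 hairpins (paired by name) whose arms both passed that filter. Low values were multiples of the value of 1 read, 0.72 to 1.69 normalized reads, and 93.3% to 95.7% of those up to 20 reads were whole within 0.1. The whole reads recovered, rounded, were tested with edgeR 4.0.16, which called 345 miRNAs, and DESeq2 1.42.0, which called 347. GC was corrected by a loess curve (span 0.75) per library. Ratios between members were tested by exact permutation (scipy 1.17.1, Python 3.11.15).

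The limma steps were tested on simulated reads. Members are named by the family rule. Also named are the list of other LINE-2 miRNAs, the 5 closest patterns and seed sharers. The members and lists were chosen with earlier results of these data known. Sequences come from the deposited table and the authors' hairpin list, and host genes from RefSeq (all 3 matched by symbol).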

Additional observations from a re-analysis of the deposited data

How the results depend on the processing

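MiR-151-5p and the arm ratio of miR-151 kept their direction and their call under every alternative run. No other member was called under the authors' scaling with all 6 libraries, and some were under other scalings or without MS replicate 3. With equal sums miR-151-3p was at 0.71, miR-28-5p at 0.79, miR-28-3p at 0.75, miR-708-5p at 0.89 and miR-708-3p at 1.15, all called, so that 6 members were. With the GC correction miR-151-3p (0.84), miR-28-3p (0.72) and miR-708-5p (0.66) were called and miR-28-5p turned to -0.22, so that 4 members were. With the GC correction and a replicate block the log2 values were the same and 3 members were called. Of the 548 miRNAs 63.9% were called with equal sums and 59.9% with the GC correction, and 323 were with the block added. The GC correction also turned the arm ratio of miR-28 to -0.94, called, and that of miR-708 to 0.083. So 2 hairpins of the family were called, where 123 of the 192 tested were. With the block added the arm ratios of miR-28 and miR-708 kept these values and neither was called, where 116 of the 192 were. The GC correction turned the ratios of miR-151-3p to miR-28-3p (0.12), miR-151-3p to miR-708-3p (0.26) and miR-28-3p to miR-708-3p (0.14) as well. The cause of these shifts was not tested.

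A filter at 1000 normalized reads left 122 called miRNAs, and miR-708-3p was then not in the fit. A filter at 100 left 68 called hairpins. Both test fewer features. Leaving out each library gave 300 to 373 called miRNAs, 1 to 3 members, 95 to 117 hairpins and log2 values of -1.50 to -1.19 for miR-151-5p, 0.08 to 0.41 for miR-151-3p, 0.20 to 0.49 for miR-28-5p, 0.13 to 0.53 for miR-28-3p, 0.32 to 0.69 for miR-708-5p and 0.47 to 0.95 for miR-708-3p. Without MS replicate 3 both miR-708 arms were called, in the fit that called the most miRNAs of these, 373. The arm ratio ranged from -0.20 to 0.27 for miR-28, with -0.20 without LW replicate 2 and -0.15 without MS replicate 2, and from -0.40 to -0.08 for miR-708.

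The replicate numbers are separate animals, and the deviations from the breed means correlated at 0.0047, -0.21 and 0.097 between libraries of the same number. These values had no unlike-numbered pairs beside them, so they cannot decide whether libraries of the same number were processed together. A replicate block alone gave 332 called miRNAs and 119 called hairpins, and changed no call of the family. Depth was lowest in MS replicate 3, where 1 read was worth 1.69 normalized reads.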
